A study of Mus musculus and synthetic construct with 15 samples.

Results

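Reporter activity of candidate enhancers was measured in the postnatal mouse ventricle, as the RNA made from each candidate over the DNA of that candidate in the virus that carried it. Of 3820 regions, 2601 averaged 10 counts or more over the 5 DNA libraries, and these were the members. This choice used the DNA alone and no RNA value. Each region was 400 bp of the mouse genome (build mm10). The 5 ventricular libraries were RNA from ventricles of wild-type (WT) mice that received an AAV9 library as newborns, at postnatal day 0, and were dissected at postnatal day 7. The 5 DNA libraries were AAV genomes released from the virus and were never in a heart. Another 5 libraries of the series, RNA from atria of the same treatment, were used at the end only. The labels give cardiomyocytes as the cell type, and since the counts are of reporter RNA and hold no endogenous gene, this could not be checked against markers. Nothing in the labels says that replicates came from separate animals, so p-values measure the spread between these libraries, which may be technical.

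Enhancers are stretches of DNA that raise transcription from a promoter when transcription factors bind them, and p300 is a coactivator that such factors recruit and that acetylates histones there. In a massively parallel reporter assay many candidates are tested at once, each one read out by the amount of its own RNA. AAV9 is a serotype of adeno-associated virus that enters heart muscle cells well, which lets the assay run inside the living heart. The ventricle of the newborn mouse is a muscle that grows and shifts its metabolism towards fat oxidation, and GATA, MEF2, T-box, NKX2-5 and TEAD factors are among its known regulators.

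The sequences below come from a few of the tested regions and do not show what active or silent regions look like in general. They are the stretches upstream of a transcription start in RefSeq's annotation of GRCm38.p6 (the same build as mm10) that fall inside a tested region, and were chosen after their values were seen. Of the 2601 regions, 48 overlapped such a start window of 250 bases before and 50 after the start. Only the Myl2 stretch lies before a start of the gene it is labelled with. The others lie before starts of long non-coding RNAs (Gm32492 near Adrb1, Gm35546 near Tgfb2, Gm32352 in Wfdc1, Gm38675 in Bri3). Their labels give the nearest protein-coding gene. Each stretch is printed from 5′ to 3′ on the strand of the transcript, in lower case, with matches to 7 motifs in capitals. For GATA factors the letters searched were AGATAA. For estrogen-related receptors they were AAGGTCA, for TBX5 they were AGGTGT, for TEAD they were GGAATG and for NKX2-5 they were TNAAGTG. The MEF2 site and the SRF CArG box are given by their names alone. All were searched on both strands, with overlaps allowed. A match is a run of letters and no evidence of binding.
Active region near Adrb1, chr19:56668858-56669066, plus strand: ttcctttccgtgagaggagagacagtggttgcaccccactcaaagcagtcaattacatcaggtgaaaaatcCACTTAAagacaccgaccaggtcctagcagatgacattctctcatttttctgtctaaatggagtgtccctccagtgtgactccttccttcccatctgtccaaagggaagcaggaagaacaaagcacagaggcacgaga
Active tile near Tgfb2, chr1:186587235-186587321, plus strand: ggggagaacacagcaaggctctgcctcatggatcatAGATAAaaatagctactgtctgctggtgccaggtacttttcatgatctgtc
Neighbouring tile near Tgfb2, chr1:186587072-186587234, plus strand: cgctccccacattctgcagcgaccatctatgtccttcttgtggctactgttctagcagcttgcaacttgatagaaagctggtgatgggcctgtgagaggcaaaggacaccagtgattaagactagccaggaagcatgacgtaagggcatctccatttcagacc
Active tile in Wfdc1, chr8:119670937-119671186, minus strand: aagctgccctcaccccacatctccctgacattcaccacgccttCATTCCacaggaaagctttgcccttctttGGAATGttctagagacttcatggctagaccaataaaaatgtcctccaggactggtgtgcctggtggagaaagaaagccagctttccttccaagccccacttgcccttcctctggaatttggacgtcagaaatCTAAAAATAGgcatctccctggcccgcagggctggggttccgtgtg
Silent tile in Wfdc1, chr8:119670634-119670815, minus strand: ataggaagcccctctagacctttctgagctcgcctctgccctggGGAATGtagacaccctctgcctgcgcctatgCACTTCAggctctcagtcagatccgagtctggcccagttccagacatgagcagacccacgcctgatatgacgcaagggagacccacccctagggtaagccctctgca
Active tile in Bri3, chr5:144258231-144258374, plus strand: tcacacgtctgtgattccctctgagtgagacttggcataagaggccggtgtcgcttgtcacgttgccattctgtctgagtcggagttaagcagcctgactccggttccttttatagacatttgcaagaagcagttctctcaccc
Silent tile in Bri3, chr5:144258375-144258480, plus strand: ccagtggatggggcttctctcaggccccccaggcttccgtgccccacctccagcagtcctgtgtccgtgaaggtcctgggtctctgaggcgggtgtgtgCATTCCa
Silent region at the start of Myl2, chr5:122092939-122093054, plus strand: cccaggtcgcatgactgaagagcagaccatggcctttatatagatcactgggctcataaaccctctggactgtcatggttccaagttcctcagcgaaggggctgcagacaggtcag

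The first of these regions held a match to NKX2-5, which 8.36% of all RefSeq start windows hold in the same stretch. The active tile near Tgfb2 held a GATA match (3.06% of windows), and the tile next to it held none of the 7. The stretch shown of the active tile in Wfdc1 held a pair of TEAD matches (12.6% of windows hold at least 1) and a MEF2 match (2.92%). Another stretch of this tile, at chr8:119670816-119670883 and not printed, held an NKX2-5 match (2.83%), and the silent tile beside it held a TEAD (9.19%) and an NKX2-5 match (7.23%). In Bri3 the stretch shown of the silent tile (106 bases) held a TEAD match (5.06%) and that of the active tile (144 bases) held none. The stretch shown before a start of Myl2 held none of the 7. The TEAD and the NKX2-5 letters thus stood in both active and silent tiles.

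The 3 pairs of tiles are next to each other in the genome without a gap, and the members of each pair differed in their call. The active Tgfb2 tile had 1515, 1426, 1367, 1194 and 1403 CPM (counts per 1000000 counts of the library, scaled by TMM) in ventricular replicates 1 to 5 and 457, 430, 493, 428 and 477 CPM in DNA replicates 1 to 5. Every ventricular value lay above every DNA value, and the log2 ratio of RNA over DNA was 1.60 ± 0.08 (SE; edgeR quasi-likelihood test, Benjamini-Hochberg adjusted p = 1.2e-11). The neighbouring tile (chr1:186586835-186587234) had 43.9 CPM in ventricular replicate 1 and 75.2 to 88.6 CPM in replicates 2 to 5, against 69.9 to 110.7 CPM in DNA. Its groups overlapped and it did not pass the test, at a log2 ratio of -0.15 ± 0.19. Whether the tiles differ from each other was not tested in any pair.

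In the short gene Wfdc1, which encodes a secreted protease inhibitor, the tile at chr8:119670816-119671215 had 963, 860, 952, 808 and 929 CPM in ventricular replicates 1 to 5 and 428 to 497 CPM in DNA. The adjoining tile (chr8:119670416-119670815) had 143, 195, 164, 181 and 192 CPM in the ventricle and 823 to 1166 CPM in DNA. Ventricular RNA was above DNA in every library of the former and below it in every library of the latter, with log2 ratios of 0.96 ± 0.08 and -2.51 ± 0.11. In Bri3, the tile at chr5:144257975-144258374 had 233 to 303 CPM in the ventricle and 136 to 164 CPM in DNA, a log2 ratio of 0.81 ± 0.10. The tile after it (chr5:144258375-144258774) had 99.5, 52.7, 97.3, 36.5 and 91.4 CPM in the ventricle and 429 to 572 CPM in DNA, a log2 ratio of -2.67 ± 0.27. Groups did not overlap in either tile of Bri3. Active here means more RNA than DNA in the test. The ratios of the active tiles in Wfdc1 and Bri3 lay below the 95th percentile of the Neg regions described below. That percentile was 1.02 at 300 DNA counts or more, and the active Tgfb2 tile, at 1.60, lay above it.

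Counts and libraries set limits on all that follows. Total counts were 1271527 in ventricular replicate 1, 2862596 to 3781726 in replicates 2 to 5 and 2312820 to 2958271 in the DNA libraries. A count of 0 therefore allows up to 2.36 CPM in ventricular replicate 1 and 0.793 CPM in the deepest library (3 counts, before TMM scaling, for counting error only). Ventricular replicate 1 stood apart from the others. It had no count in 700 of the 3820 regions, against 36 to 66 in replicates 2 to 5, and 0.0162% of its counts fell in the 488 regions without any DNA count, against 3.93% to 4.20%. Among the tested regions its log2 ratio differed from the mean of replicates 2 to 5 by more than 1 in 137 of the 854 regions whose DNA averaged 10 to under 100 counts, in 31 of the 570 with 100 to under 300 counts and in 36 of the 1177 with 300 counts or more. In the first range 107 of the 137 were lower in replicate 1, in the last 25 of the 36 were higher. Results are therefore given with and without this library where they move with it, and regions are named where DNA averaged 100 counts or more.

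**Figure D1:**
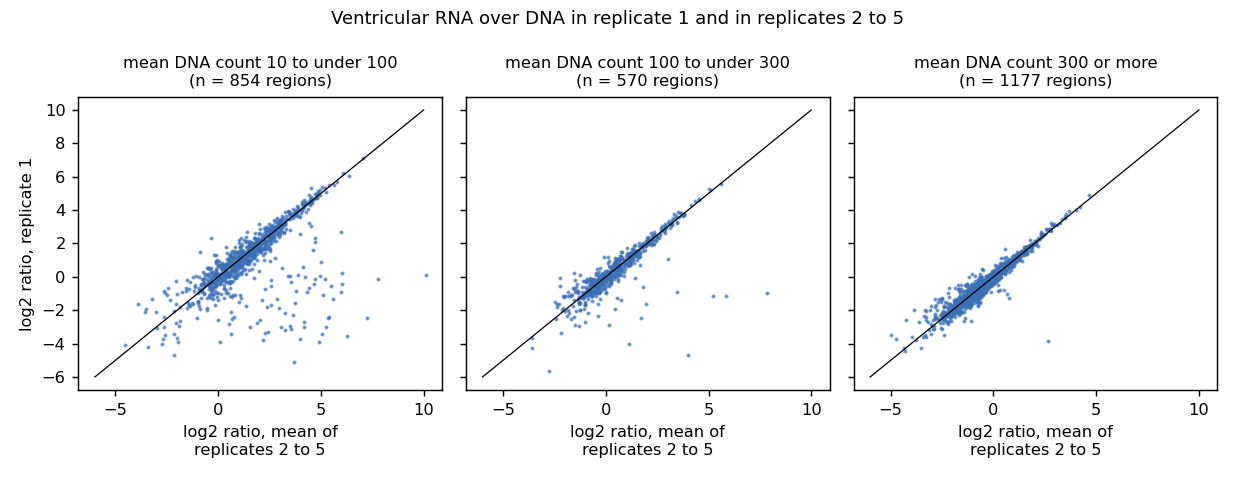
Log2 ratio of ventricular RNA over DNA in replicate 1 (vertical axis) against the mean of replicates 2 to 5 (horizontal axis), 1 point per tested region, in 3 ranges of the mean DNA count; the line marks equal values. Most points follow the line, and a cloud below it, of regions lower in replicate 1, is densest in the left panel, where 107 of 854 regions lie more than 1 below the value of the other replicates.

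The ratio also moved with the abundance of a region in the virus. Where the mean DNA count was 10 to under 100, 584 of 854 regions were higher in RNA (68.4%) and 67 lower (7.85%), with a median log2 ratio of 1.43. At 100 to under 300, 269 of 570 were higher (47.2%) and 166 lower (29.1%), with a median of 0.28. At 300 or more, 276 of 1177 were higher (23.4%) and 750 lower (63.7%), with a median of -0.69. The medians of replicate 1 alone fell in the same order, at 1.08, 0.15 and -0.68. The part of DNA abundance in the results below was not tested, so classes were also set beside each other within these ranges.

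Over all 2601 regions, ventricular RNA was higher than DNA at 1129 (43.4%) and lower at 983 (37.8%), together 81.2%, in the edgeR quasi-likelihood test at an adjusted p under 0.05. A difference of at least 2-fold was reached by 822 higher (31.6%) and 560 lower regions (21.5%). The 5 ventricular values lay above all 5 DNA values at 940 regions (36.1%) and below them at 880 (33.8%). The middle of the distribution ran from a log2 ratio of -0.85 at the lower quartile to 1.40 at the upper quartile, with the median at 0.13 and the 95th percentile at 3.65. No tested region was without RNA counts in all 5 ventricular libraries, so silent here means less RNA than DNA and not the absence of RNA. Scaled by library totals in place of TMM, the split was 1371 higher and 732 lower, with the median of all regions moved up by 0.37. All ratios are thus relative to the bulk of the library.

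By class tag, regions tagged vMTF were the most often active. Of 135 tested regions tagged vMTF-p300, 89 were higher in ventricular RNA than in DNA (65.9%) and 37 lower (27.4%), with a median log2 ratio of 1.37. Of 389 tagged vMTF+p300, 250 were higher (64.3%) and 89 lower (22.9%), with a median of 0.79. Of 153 tagged aMTF-p300, 77 were higher and 44 lower (median 0.50), and of 266 tagged aMTF+p300, 122 were higher and 98 lower (median 0.21). The background over all tested regions was 43.4% higher and 37.8% lower. Between the +p300 and -p300 forms of a tag the shares higher were 64.3% and 65.9% for vMTF and 45.9% and 50.3% for aMTF, and these differences were not tested.

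The tags GeneAVB, p300AVB and ESC-Neg had shares higher that were below the background, and of only 6 tested regions tagged BNA-TF, 3 were higher and 3 lower. Of 865 regions tagged GeneAVB, 338 were higher (39.1%) and 384 lower (44.4%), and of 421 tagged p300AVB, 148 were higher (35.2%) and 173 lower (41.1%). Of 540 tagged ESC-Neg, 195 were higher (36.1%) and 210 lower (38.9%). The medians of these 3 tags were -0.09, -0.07 and -0.08, and with library totals they became 0.28, 0.30 and 0.29, so their sign rests on the scaling. Of the 162 regions that carried 2 or more tags, 84 were higher (51.9%) and 53 lower. Without ventricular replicate 1 the counts of higher regions were 240 for vMTF+p300, 88 for vMTF-p300, 327 for GeneAVB and 194 for ESC-Neg, and in replicate 1 alone 216, 87, 309 and 151.

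The group column, which the deposited table gives beside the counts, divided the regions in another way. Of 1170 regions called MTF or P300, 572 were higher (48.9%) and 419 lower, with a median log2 ratio of 0.32. Of 520 called spMTF or spP300, 243 were higher (46.7%) and 181 lower, with a median of 0.27. Of 214 called TF3-4, 71 were higher (33.2%) and 101 lower, of 228 called TF1-2, 76 were higher (33.3%) and 100 lower, and of 469 called Neg, 167 were higher (35.6%) and 182 lower. Their medians were -0.30, -0.28 and -0.07. With library totals these became 0.07, 0.10 and 0.30, and the counts turned to 92 higher and 79 lower for TF3-4, 94 and 78 for TF1-2 and 210 and 124 for Neg, so here too the sign rests on the scaling. Tag and group crossed: within the group MTF or P300, 170 of 265 regions tagged vMTF+p300 were higher (64.2%), against 201 of 512 tagged GeneAVB (39.3%) and 23 of 60 tagged p300AVB (38.3%). Regions tagged aMTF-p300 ranged from 55 of 96 higher in the group MTF or P300 through 12 of 28 in spMTF or spP300 and 8 of 22 in TF3-4 to 2 of 7 in TF1-2.

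**Figure D2:**
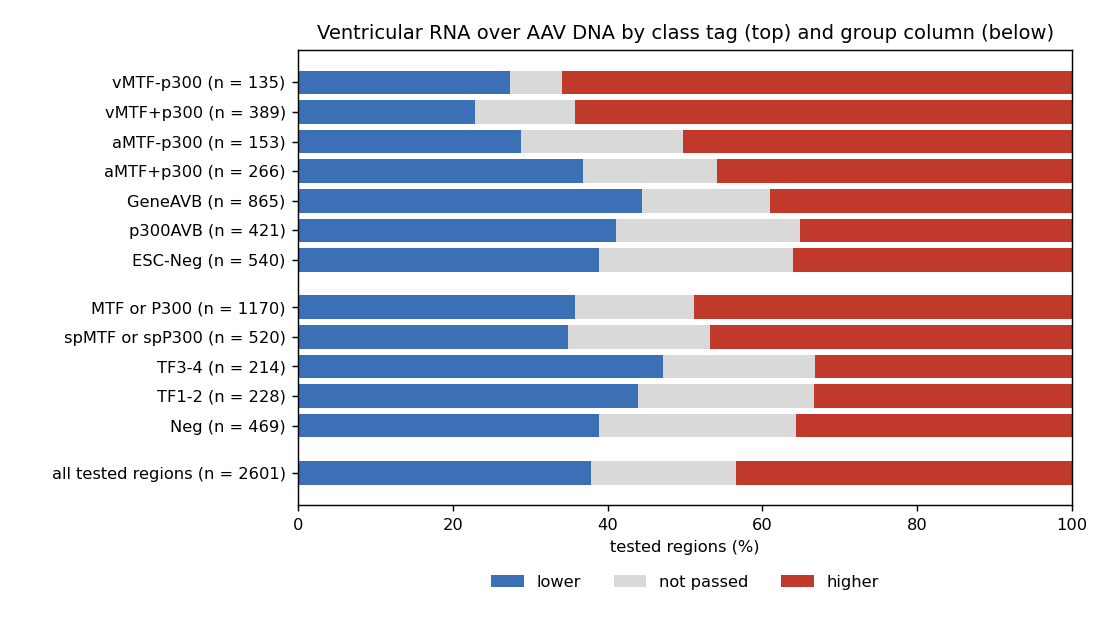
Percent of tested regions with less ventricular RNA than DNA (blue), not passed (grey) and more RNA than DNA (red) at an adjusted p under 0.05, for each class tag, each value of the group column and all 2601 regions, with the number of tested regions. The red share is widest in the 2 vMTF tags, at 65.9% and 64.3%, and the blue share exceeds the red in GeneAVB, p300AVB, ESC-Neg, TF3-4, TF1-2 and Neg.

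Set against Neg regions of like DNA abundance, the vMTF and aMTF tags stayed above Neg, while their order changed between the ranges. In each ventricular library the median log2 ratio of a tag was taken over the median of the Neg regions in the same range of DNA counts. For vMTF+p300 the excess was 1.10 ± 0.16 (SD, n = 5 libraries) in the low range of DNA counts, 1.23 ± 0.14 in the middle and 0.80 ± 0.03 in the high range. For vMTF-p300 it was 1.33 ± 0.19, 1.69 ± 0.15 and 0.49 ± 0.08, for aMTF+p300 1.32 ± 0.14, 0.33 ± 0.14 and 0.31 ± 0.03, and for aMTF-p300 0.62 ± 0.19, 0.57 ± 0.08 and 0.32 ± 0.10. These 4 tags lay above Neg in all 5 libraries in all 3 ranges. At 10 to under 100 counts aMTF+p300 was above vMTF+p300, and at 300 or more vMTF+p300 was above vMTF-p300. GeneAVB lay above Neg in all 5 libraries in the lower and the middle range (0.50 ± 0.14 and 0.38 ± 0.16), and at 300 or more in 2 of 5 (-0.004 ± 0.03). At 300 or more, p300AVB (-0.14 ± 0.02) and the groups TF1-2 (-0.15 ± 0.06) and TF3-4 (-0.21 ± 0.03) lay below Neg in all 5 libraries. In the other ranges they did not all do so: p300AVB was above Neg in 5 of 5 libraries at 100 to under 300 (0.28 ± 0.18) and in 4 of 5 at 10 to under 100, and TF1-2 in 5 of 5 in the low range (0.25 ± 0.20) and in 1 of 5 in the middle. TF3-4 was above Neg in 3 of 5 libraries in the low and in the middle range. Among the abundant regions 75 of 161 tagged vMTF+p300 were higher (46.6%), against 28 of 175 Neg regions (16.0%) and 28 of 191 tagged p300AVB (14.7%).

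**Figure D3:**
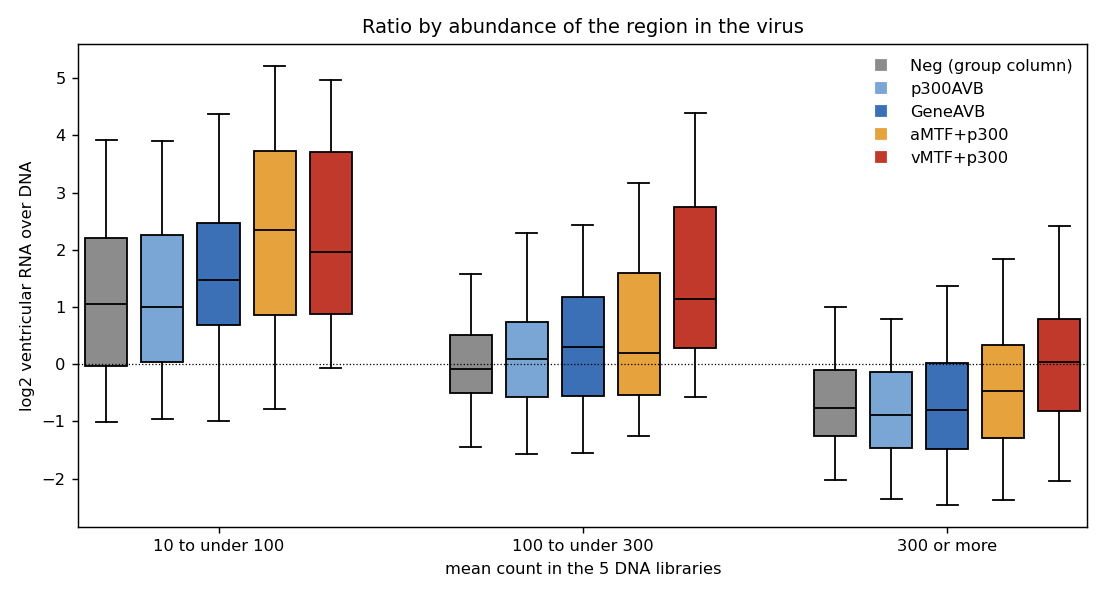
Log2 ratio of ventricular RNA over DNA of the tested regions of 5 classes (colours) in 3 ranges of the mean DNA count; boxes span the quartiles with the median as a line, and whiskers the 5th to 95th percentile. All classes fall from left to right, and within each range the boxes of vMTF+p300 and aMTF+p300 have higher medians than Neg, while the p300AVB box at 300 or more lies at a median of -0.90 against -0.77 for Neg.

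The Neg regions themselves gave the level that a region outside the candidate sets can reach. Their 95th percentile was a log2 ratio of 2.97 over all Neg regions, which 220 tested regions exceeded (8.46%), and 3.93, 1.61 and 1.02 in the 3 ranges of DNA counts from low to high. Above the percentile of their own range lay 330 of 2601 regions (12.7%). By tag these were 37 of 135 vMTF-p300 (27.4%), 98 of 389 vMTF+p300 (25.2%), 29 of 153 aMTF-p300 (19.0%), 47 of 266 aMTF+p300 (17.7%), 84 of 865 GeneAVB (9.71%) and 21 of 421 p300AVB (4.99%). By group they were 218 of 1170 MTF or P300 (18.6%), 63 of 520 spMTF or spP300 (12.1%), 16 of 214 TF3-4 (7.48%) and 9 of 228 TF1-2 (3.95%). For Neg itself the choice of the percentile fixes the share near 5%.

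The strongest regions among those abundant in the virus had no single kind of neighbour gene. Here and below a region is named by the protein-coding gene whose body is nearest to its midpoint within 100 kb, which does not show that it regulates that gene. The highest was a vMTF+p300 region with no such gene (chr10:84230341-84230740). It had 13862, 12383, 10908, 11271 and 12267 CPM in ventricular replicates 1 to 5 and 452, 470, 371, 589 and 479 CPM in the DNA replicates. The lowest ventricular value was far above the highest DNA value, and the log2 ratio was 4.68 ± 0.12. A region inside Fhod3, a formin that heart muscle needs to assemble sarcomeres (chr18:24861576-24861975, aMTF-p300), had 9283, 8420, 7996, 8144 and 8486 CPM in the ventricle and 693 to 870 CPM in DNA, a log2 ratio of 3.49 ± 0.09. All its ventricular libraries stood far above the DNA libraries.

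A region inside Cilk1, a kinase of primary cilia (chr9:78139419-78139818, aMTF-p300), had a log2 ratio of 4.20 ± 0.13, and a region 47666 bp from Rasl11b, a small GTPase of the Ras family (chr5:74147460-74147859, vMTF-p300), 3.998 ± 0.08. The Rasl11b region was even between libraries, at 3758, 3545, 3665, 3727 and 4048 CPM in the ventricle and 214 to 249 CPM in DNA. Regions inside Lrrfip1 (chr1:91015540-91015939) and Grip2, a scaffold of glutamate receptors (chr6:91785018-91785417), reached 3.73 ± 0.10 and 3.48 ± 0.07, and a region near Grasp, a scaffold of membrane traffic (chr15:101241235-101241634), 3.60 ± 0.09. The remaining 3 of the 10 highest were another region on chromosome 10 without a gene (chr10:118747035-118747434, 3.36 ± 0.08), a region inside Usp13, a deubiquitinase (3.24 ± 0.08), and one inside Mpi, an enzyme of mannose metabolism (3.10 ± 0.09). Of the 10 regions, 6 carried a vMTF and 4 an aMTF tag, and 9 were in the group MTF or P300. Among all 1177 regions with 300 DNA counts or more, 575 were in that group. There 161 carried the tag vMTF+p300, 47 vMTF-p300, 132 aMTF+p300 and 61 aMTF-p300. The tally of the 10 was not tested against these numbers. Adjusted p-values in the edgeR quasi-likelihood test were 5.5e-15 at the highest region on chromosome 10 and 2.1e-14 at Cilk1. No ventricular value overlapped a DNA value in any of the 10 regions.

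**Figure D4:**
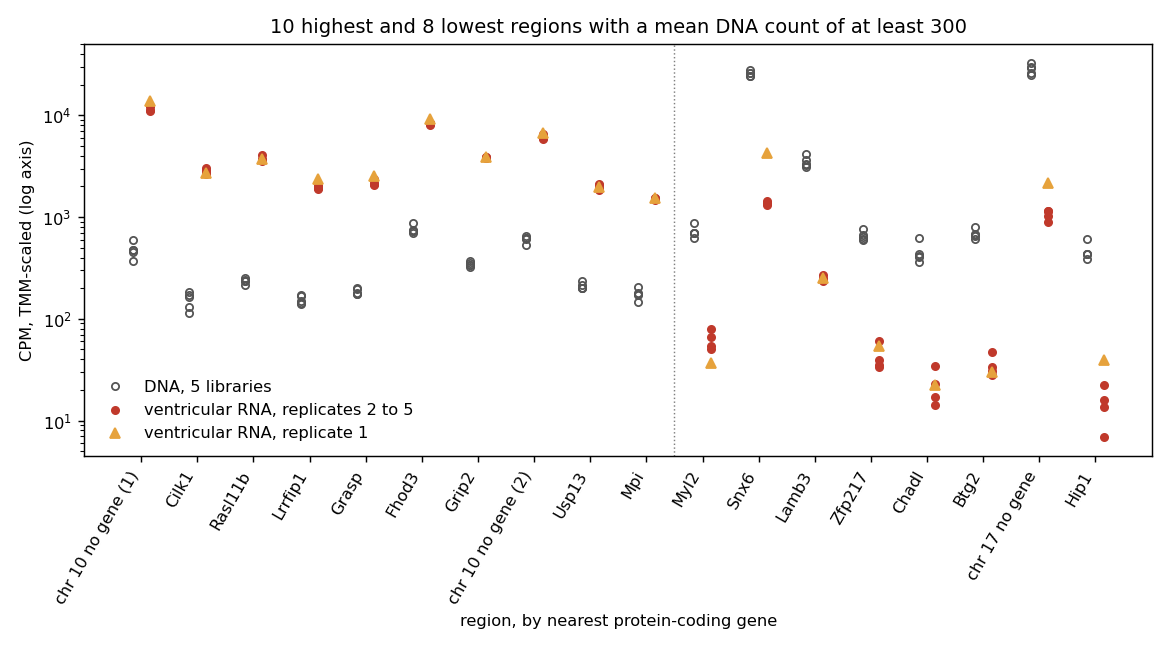
Normalised read counts (CPM, TMM-scaled, log axis) in each DNA library (open circles), ventricular replicate 1 (triangles) and ventricular replicates 2 to 5 (filled circles) for the 10 highest and the 8 lowest of the regions that averaged 300 DNA counts or more. Left of the dotted line every RNA value lies above the DNA values and right of it below them; at Snx6 replicate 1 stands at 4293 CPM and the other 4 ventricular libraries between 1300 and 1439.

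The highest ratios were larger at lower DNA abundance, in the range of 100 to under 300 counts, as were those of all regions there. Insr encodes the receptor for insulin, and a region within it (chr8:3187531-3187930, vMTF+p300) had 2265, 2194, 2360, 2279 and 2516 CPM in the ventricle and 50.3, 47.0, 35.8, 62.2 and 45.4 CPM in DNA. A region inside Sphkap, an anchoring protein of protein kinase A (chr1:83345514-83345913, GeneAVB and vMTF+p300), had 1713 to 1930 CPM in the ventricle and 44.7 to 59.8 CPM in DNA, a log2 ratio of 5.15 ± 0.10. A region 30663 bp from Fxr1, an RNA-binding protein of striated muscle (chr3:33989195-33989594, aMTF+p300), reached 5.08 ± 0.09, and one inside Pcp4l1 (aMTF+p300) 4.55 ± 0.13. The lowest ventricular value among these 4 regions was 1083 CPM, at Pcp4l1, and the highest DNA value 66.2 CPM, so no groups overlapped. The highest p300AVB regions were lower, near Slc7a13 (2.65 ± 0.10) and Slc5a11, a sodium-coupled sugar transporter (2.47 ± 0.15). The highest of the groups TF3-4 and TF1-2 with such counts were near Rnase2a (3.76 ± 0.16) and near Slc5a11.

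Gene lists are read against the share over all tested regions, 43.4% higher and 37.8% lower, and no list was tested against it. The sarcomere list had 24 tested regions at 14 genes, of which 13 were higher in ventricular RNA (54.2%), 6 lower and 5 did not pass, with a median log2 ratio of 0.54 against 0.13 over all regions. A region inside Ldb3, a protein of the Z-disc (chr14:34573943-34574342, vMTF+p300), had 1530, 1244, 1200, 1430 and 1291 CPM in the ventricle and 98.3 to 140 CPM in DNA, a log2 ratio of 3.46 ± 0.11. A region 9577 bp from Myh7, the beta-myosin heavy chain (chr14:55004004-55004403), had 3369, 3062, 3091, 2939 and 3056 CPM and 651 to 713 CPM in DNA, a log2 ratio of 2.18 ± 0.07. In neither of these regions did the groups overlap.

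Myl2 went the other way. The region over a start of this gene, which encodes the regulatory light chain of ventricular myosin (chr5:122092655-122093054, GeneAVB), had 36.9, 54.1, 79.5, 65.6 and 50.6 CPM in the ventricle and 695, 695, 880, 627 and 705 CPM in DNA. All ventricular values were below all DNA values, the log2 ratio was -3.62 ± 0.17 and the adjusted p 6.8e-11 in the edgeR quasi-likelihood test. The region overlaps the windows of different annotated starts of Myl2. The last of the sequences above lies before the downstream start and ends with the region, short of that start. The stretch before the start inside the region (chr5:122092655-122092723) was not printed and held none of the 7 motifs. The 9 tested regions that overlapped the start window of a protein-coding gene had no higher call and 7 lower ones (77.8%, against 37.8% of all regions). Of these 9, 6 had 300 DNA counts or more, where 5 of them were lower and 63.6% of the regions without a start window were lower too. The 9 include overlapping regions at a start of Hip1, chr5:135488873-135489272 and chr5:135489150-135489549. The latter averaged 12 DNA counts and 0.717 CPM in the ventricle, about what a count of 0 allows (0.793 CPM in the deepest library). The 39 that overlapped only a window of a long non-coding RNA had 15 higher (38.46%, against 43.4% of all regions) and 18 lower (46.15%, against 37.8%). All 9 at protein-coding genes had a log2 ratio below 0, so the edgeR quasi-likelihood test called 0 of them higher at an unadjusted p under 0.05 as well.

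Loci of calcium handling and ion channels had 30 tested regions at 17 genes, with 16 higher (53.3%, against 43.4% of all regions), 11 lower and a median of 0.78. With only regions of 100 DNA counts or more in the fit the direction turned, to 6 of 18 higher, 8 lower and a median of -0.21. That fit had its own scaling and called 741 of all its 1747 regions higher and 689 lower, with a median of 0.009. A region inside Camk2d, the main calcium/calmodulin-dependent kinase of heart muscle (chr3:126746335-126746734, vMTF+p300), had 2362, 2218, 2051, 2204 and 2061 CPM in the ventricle and 104 to 136 CPM in DNA, a log2 ratio of 4.20 ± 0.09. A region inside Casq2, the calcium buffer of the sarcoplasmic reticulum (chr3:102099305-102099704, aMTF-p300), had a ratio of 1.93 ± 0.09. Jph2, which holds the sarcoplasmic reticulum to the plasma membrane, had regions on both sides. The one at chr2:163392337-163392736 (aMTF+p300) had 711, 807, 756, 791 and 776 CPM in the ventricle and 198 to 243 CPM in DNA, a ratio of 1.84 ± 0.08. The one at chr2:163353562-163353961 (vMTF-p300) had 101, 66.8, 170, 112 and 113 CPM and 529 to 639 CPM in DNA, a ratio of -2.36 ± 0.19. Within this gene the tested regions thus included an active and a silent one, both without overlap between RNA and DNA.

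Loci of cardiac transcription factors had 45 tested regions at 13 genes, with 23 higher (51.1%, near the 43.4% of all regions), 15 lower (33.3%, against 37.8%) and a median of 0.51. Prdm16, a zinc-finger factor of the ventricular compact wall, also had both kinds. Its region at chr4:154542514-154542913 (GeneAVB) had 2057, 1665, 1603, 1353 and 1634 CPM in the ventricle and 202 to 232 CPM in DNA, a log2 ratio of 2.90 ± 0.10. Its region at chr4:154626184-154626583 (GeneAVB) had 702, 699, 706, 685 and 683 CPM and 3873 to 4860 CPM in DNA, a ratio of -2.61 ± 0.08. A region 43358 bp from Nr2f2, an orphan nuclear receptor of atrial identity (chr7:70409905-70410304, GeneAVB), had 1191 to 1365 CPM in the ventricle and 436 to 499 CPM in DNA, a ratio of 1.42 ± 0.07. No ventricular value of this region was as low as a DNA value.

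Loci of energy metabolism had 14 tested regions at 8 genes, with 9 higher (64.3%, against 43.4% of all regions), 3 lower and a median of 0.60. A region 14362 bp from Coq8a, a factor of coenzyme Q synthesis, had 2272, 1812, 2007, 1896 and 2092 CPM in the ventricle and 77.2 to 106 CPM in DNA, a log2 ratio of 4.39 ± 0.10. A region inside Esrrb, an estrogen-related receptor that drives genes of oxidative metabolism (chr12:86498831-86499230, vMTF+p300), had 1354 to 1453 CPM and 73.8 to 125 CPM in DNA, a ratio of 3.77 ± 0.11. A region inside Ppargc1b, a coactivator of the same receptors (chr18:61321978-61322377, aMTF-p300), was silent, at 273, 324, 232, 281 and 346 CPM in the ventricle and 871 to 1177 CPM in DNA, a ratio of -1.79 ± 0.11. Each of these 3 kept its groups apart.

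Loci of secreted factors and growth regulators had 22 tested regions at 10 genes, with 12 higher (54.5%, against 43.4% of all regions), 3 lower and a median of 0.71. Without ventricular replicate 1, 5 of them were lower. The Insr region above headed this list. The region 53059 bp from Adrb1, the main beta-adrenergic receptor of heart muscle (chr19:56668858-56669257, GeneAVB), had 1332, 1191, 1293, 1310 and 1391 CPM in the ventricle and 180 to 213 CPM in DNA, a ratio of 2.76 ± 0.08. It is the region of the first sequence above.

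Genes of other heart cell types also had active regions nearby. Their lists held few tested regions and were not tested against the shares over all regions (43.4% higher, 37.8% lower). Of 5 tested regions at 4 endothelial genes all 5 were higher. They included a region near S1pr1, a receptor for sphingosine-1-phosphate (chr3:115737856-115738255), with 437, 416, 385, 357 and 336 CPM in the ventricle and 102 to 140 CPM in DNA (1.65 ± 0.11), and a region near Egfl7, a factor secreted by endothelium (1.21 ± 0.08). Another, near the VEGF receptor gene Flt1, was a Neg region at 0.58 ± 0.13 and lost its call when tested against a 1.5-fold change. The list of fibroblast and matrix genes had 5 of 13 higher (38.5%) and 7 lower (53.8%), and with library totals 6 and 6. At its type IV collagen genes, a region near Col4a1 (chr8:11183474-11183873) had 4628 to 5451 CPM in the ventricle and 692 to 836 CPM in DNA (2.71 ± 0.08), and a region inside Col4a2 (chr8:11348654-11349053) had 521 to 661 CPM and 2290 to 3041 CPM in DNA (-2.15 ± 0.10). A region near Lama4, a laminin chain of vessel walls, reached 3.78 ± 0.10. Of 3 regions at smooth muscle genes 1 was higher, and the only tested region at an immune gene, near the chemokine gene Ccl20, was higher at 1.55 ± 0.12. The cells in which a reporter was active were not measured.

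Loci of pluripotency genes held active and silent regions. At genes of the stem cell list, 5 of 11 tested regions were higher (45.5%, near the 43.4% of all regions) and 3 lower (27.3%, against 37.8%). Esrrb is on this list as well as on that of energy metabolism, and its region above (3.77 ± 0.11) counts among the 5. A region 4936 bp from Nanog, a factor of pluripotency (chr6:122702353-122702752), carries the tag ESC-Neg and the group MTF or P300. It had 1213, 1407, 1496, 1228 and 1287 CPM in the ventricle and 418 to 541 CPM in DNA, a log2 ratio of 1.45 ± 0.09. A region near Pou5f1, another such factor (chr17:35490349-35490748, Neg), had 468 to 597 CPM and 1380 to 1771 CPM in DNA, a ratio of -1.56 ± 0.09. Among Neg regions with at least 100 DNA counts, the highest were inside Glod5 on the X chromosome (chrX:8008538-8008937, 2.90 ± 0.10), on chromosome 1 without a gene (chr1:185822335-185822734, 2.83 ± 0.18) and near Rara, the retinoic acid receptor alpha (chr11:98926399-98926798, 2.41 ± 0.07). The Rara region had 1541, 1490, 1467, 1362 and 1412 CPM in the ventricle and 261 to 295 CPM in DNA. The Rara groups did not overlap, although the group column calls the region Neg.

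The lowest ratios among regions with 100 DNA counts or more are given here, so that an abundance in the virus is part of the choice. The lowest ratio of any tested region, below that limit, was -5.70. A region inside Hip1, an adaptor of endocytosis (chr5:135488873-135489272, GeneAVB), had 39.7, 22.1, 13.5, 15.9 and 6.86 CPM in the ventricle and 390 to 602 CPM in DNA, a log2 ratio of -4.65 ± 0.37. Its adjusted p was 1.1e-06 in the edgeR quasi-likelihood test, and the ratio in replicate 1 alone was -3.48. A region near Btg2, which restrains cell division (chr1:134093098-134093497, GeneAVB), had 29.9, 46.8, 30.8, 28.0 and 33.3 CPM and 609 to 795 CPM in DNA. A region inside Chadl (chr15:81693651-81694050, p300AVB) had 14.4 to 34.6 CPM and 359 to 623 CPM in DNA, a ratio of -4.33 ± 0.24, and a region near Zfp217, a zinc-finger repressor (chr2:170184472-170184871, ESC-Neg), 33.7 to 60.1 CPM and 592 to 759 CPM (-3.90 ± 0.15). A region inside Lamb3, a laminin chain of epithelia (chr1:193330145-193330544, GeneAVB), had 251, 243, 237, 254 and 272 CPM and 3082 to 4181 CPM in DNA (-3.80 ± 0.10). In none of these 5 regions did a ventricular value reach a DNA value.

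A few silent regions made up much of the virus. A region inside Mttp, a lipid transfer protein of lipoprotein assembly (chr3:138106263-138106662, p300AVB), alone took 11.2% to 13.5% of the counts of each DNA library. It had 10958, 7410, 7841, 8234 and 8657 CPM in the ventricle and 66436 to 85471 CPM in DNA, a log2 ratio of -3.08 ± 0.12. The region on chromosome 17 without a gene (chr17:4626158-4626557, vMTF+p300) had 2159, 1159, 896, 1134 and 1014 CPM in the ventricle, with replicate 1 the highest, and 24764 to 32898 CPM in DNA (-4.49 ± 0.26). A region near Snx6, a sorting nexin (chr12:54734526-54734925, aMTF+p300), had 4293 CPM in replicate 1 and 1361, 1300, 1378 and 1439 CPM in the others, against 24129 to 28209 CPM in DNA. Its ratio of -3.72 ± 0.40 became -4.31 without replicate 1. These 3 regions were below DNA in every library, and the 10 regions richest in DNA held 28.8% to 32.2% of all DNA counts.

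Ventricular and atrial RNA of the named regions were compared with each other, without the DNA, which shows where a region gave more RNA and not whether it was active in the atrium. Of the 64 regions named by the rule, 41 passed this test, 29 higher in the ventricle and 12 higher in the atrium, where 15.1% and 15.8% of all tested regions were. The regions were chosen on high or low ventricular values, so this lean is no result. With scaling on the Neg regions, which lowered the log2 difference of all tested regions by a median of 0.15, the split was 23 and 16, and with the replicate number as a block 30 and 16. Higher in the ventricle were, among others, a region on chromosome 7 without a gene (chr7:68478186-68478585, log2 difference 1.56 ± 0.13) and the region near Coq8a (1.56 ± 0.08). So were the regions near Rara (1.41 ± 0.10, adjusted p = 3.7e-08 in the edgeR quasi-likelihood test), near the lysosomal channel gene Mcoln2 (1.26 ± 0.11), in Lrrfip1 (1.24 ± 0.08), near Adrb1 (1.18 ± 0.10), in Cilk1 (1.11 ± 0.07), Esrrb (1.07 ± 0.10) and Insr (1.02 ± 0.10), and near Nr2f2 (0.77 ± 0.08). Higher in the atrium were, among others, the active region near S1pr1 (ventricle over atrium -0.76 ± 0.11) and the silent ones in Col4a2 (-1.05 ± 0.09) and Ppargc1b (-0.91 ± 0.12). The regions inside Sphkap (0.05 ± 0.07), Pcp4l1 (0.03 ± 0.08), near Lama4 (0.04 ± 0.08) and near Col4a1 (-0.06 ± 0.08) did not pass at a Benjamini-Hochberg adjusted p of 0.05.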

How the data were processed

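Counts per region were deposited by the authors for 5 ventricular, 5 atrial and 5 DNA libraries. The deposited counts are whole numbers without normalization, per the file headers and the values, and 0 values differed between the single files and the table of the whole series. Tools named in the submitters' processing notes are cutadapt 2.5 and Bowtie2 2.3.4.3 with build mm10. The labels' protocols mention molecular identifiers in a primer, but the sources used here leave unstated whether the counts are reads or molecules. All 15 libraries had a group in the labels. Replicates differed by more than sampling noise. The chi-square per degree of freedom was 12.7 to 15.6 between ventricular replicates 2 to 5 and 85.7 to 96.2 between replicate 1 and each of these. Between DNA libraries it was 1.79 to 11.9.

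Regions with a mean of at least 10 DNA counts were tested with edgeR 4.0.16 in R 4.3.3 (TMM scaling, robust quasi-likelihood test, no covariate, ventricular and DNA libraries only), with Benjamini-Hochberg adjustment over all 2601 regions and a threshold of 0.05. The 1219 regions with fewer DNA counts were left out. CPM in the text are TMM-scaled, errors of log2 ratios are SE. Ventricular and atrial RNA were compared in a separate fit with its own scaling. There the deviations of same-numbered ventricular and atrial libraries correlated at 0.228 to 0.819, which is over the limit for pairing, and the labels do not say what the numbers share. The scripts were tested on simulated counts. Alternatives were library totals, scaling on Neg regions, DESeq2 1.42.0, limma 3.58.1 (voom), other filters and thresholds, a replicate block and leaving out each library.

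Regions were named by rule where the test was passed and the libraries did not overlap: the 10 highest and 8 lowest at a mean DNA count of at least 300, and at 100 or more the 2 highest and 2 lowest of each tag and group, the 3 highest Neg regions, up to 3 regions of smallest p per gene list, and the 6 with the lowest pooled ratio. This gave 64 regions. A region was given to the nearest protein-coding gene within 100 kb in RefSeq's table (3424 of 3820 regions had one). Start windows were those of the same annotation (32851 windows, none on chromosome 18). The members and lists were chosen with earlier results of these data known. Some regions that the rule takes are not reported here and were not replaced.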

Additional observations from a re-analysis of the deposited data

Results flagged for a closer look

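In 8 of 140 groups of 5 libraries, 1 library stood further from the others than Dixon's 95% critical value, where chance gives about 1 in 20. In 5 of the 8 this was ventricular replicate 1. Its median log2 ratio over DNA was -0.28 for the tag ESC-Neg, against -0.08 to -0.03 in the other ventricular libraries, -0.31 for the group Neg and -0.44 for the group TF1-2. Its log2 ratio was 1.17 at the Ccl20 region, against 1.55 to 1.70 in the others, and -2.59 at the Snx6 region, against -4.31 to -4.16. In the other 3 it was DNA replicate 3, with a log2 CPM of 6.28 at Coq8a, which was low, and of 7.79 at Pecr and 9.24 at Hip1, which were high.

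RNA was also counted in the 488 regions without any DNA count, which no comparison used. They took 3.93%, 4.06%, 4.20% and 3.996% of the counts of ventricular replicates 2, 3, 4 and 5, and 0.0162% of those of replicate 1.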

How the results depend on the processing

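Against 1129 regions higher and 983 lower, the counts were 1371 and 732 with library totals (65.2% of calls higher, against 53.5%), 1191 and 876 scaled on Neg regions, 1067 and 1048 with DESeq2, 1062 and 1005 with limma voom, 1323 and 1099 with filterByExpr, 884 and 688 tested against 1.5-fold, and 1027 and 897 at an adjusted p under 0.01. With no filter on DNA counts, 2051 of 3818 regions were higher and 1120 lower. With only regions of 100 DNA counts or more on average, 741 of 1747 were higher and 689 lower. Both fits tested other numbers of regions and had their own scaling. The log2 ratios of the regions shared with the fit above moved by a median of -0.24 and 0.39, respectively. Leaving out 1 library gave 1064 to 1106 higher and 941 to 1036 lower. Ventricular replicate 1 alone, an alternative chosen after seeing the data, gave 989 and 991. With the replicate block the counts were 1090 and 988. The numbers do not pair ventricular with DNA libraries, whose deviations correlated at -0.0345 to 0.0587. For ventricular over atrial RNA, 46 named regions passed with the replicate block against 41, and 37 to 43 without 1 library. Of the ratios over DNA of single named regions, the call of the Flt1 region was lost against 1.5-fold (adjusted p = 0.37 in edgeR's test). At low DNA counts the depth limits the ratios, and ventricular replicate 1 has the fewest counts.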

Other observations

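The tag ESC-Neg is spelled with a low line (_) for 252 of the tested regions and with a hyphen for 288. Of the former 43.3% were higher in ventricular RNA than in DNA and of the latter 29.9%. Their median DNA counts were 111.5 and 256.7. Within ranges of the mean DNA count the shares were 57.1% of 119 and 59.5% of 84 regions at 10 to under 100, 32.3% of 62 and 27.8% of 72 at 100 to under 300, and 29.6% of 71 and 12.1% of 132 at 300 or more. The sources used here do not say what the spelling stands for, and the difference was not tested.

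Regions without a protein-coding gene within 100 kb numbered 233, of which 54.9% were higher and 26.6% lower, with a median log2 ratio of 0.74. Of 1368 regions inside a gene 42.2% were higher, and of 1000 outside one but within 100 kb 42.4%. The regions without a gene had a median DNA count of 114.4. For regions without a gene, inside one and outside one, the shares higher were 71.7%, 66.3% and 70.2% in the low range of DNA counts, 56.9%, 46.3% and 45.9% in the middle range, and 27.5%, 23.8% and 22.3% in the high range.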
